A study of Mus musculus with 4 samples.

Results

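Glycolysis and glycogen metabolism were followed through 40 genes that cover glucose entry, the glycolytic steps, lactate formation, and glycogen synthesis and breakdown. The genes were listed by symbol, and every probe set that the platform annotation maps to exactly 1 of them was taken. Of the 40 genes, 36 were measured by 76 such probe sets among the 18193 genes of the table, and 15 of the 36 had 1 probe set. Gapdh was reached by control probe sets alone and is given separately, and Eno1, Gpi1 and Pfkfb1 were not analysed here. The cells were satellite cells, which repair skeletal muscle, isolated from the hindlimbs of C57BL/6J mice by sorting on syndecan-4, a proteoglycan of the cell surface. Young adult mice of 3 to 6 months were compared with aged adults of 20 to 25 months, and neither age carried a transgene or treatment that the labels name. Each age had 2 pools, numbered 1 and 2, with 1 array per pool. A pool held 6 to 8 mice per the treatment protocol and 4 to 8 mice per the series text, so the spread between pools does not show the spread between mice.

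Glycolysis splits glucose into pyruvate and yields ATP without oxygen, and glycogen is the branched glucose store that muscle fibres draw on during contraction. Many of its enzymes exist as isoforms encoded by separate genes, 1 enriched in muscle fibres and others found in most tissues, in liver, in brain or in blood cells. Satellite cells lie against fibres that are rich in the muscle isoforms. The 36 measured genes were therefore sorted by the known tissue range of each isoform into 9 muscle forms, 11 counterpart forms encoded by other genes for the same step, 10 forms that are single or shared widely between tissues, and 6 other forms.

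The deposited values are taken as log2 and lie around 0, because each probe set had been centred so that its median across arrays was 0. They give differences between pools and no level, so no gene can be called strongly or weakly expressed, the presence of a marker cannot be judged, and the levels of 2 genes cannot be compared. For a gene with 1 probe set, the 2 middle values are equal in size with opposite signs by this construction. Differences are aged minus young with the standard error of a limma fit across all 18193 genes, and folds take the base of the logarithm to be 2. With limma, 0 of 18193 genes passed an adjusted p of 0.05 (0% of those tested), while 1645 had an unadjusted p under 0.05, so counts at that unadjusted p are given as a description. Array medians lay between -0.07 and 0.05. All 26 mature fibre markers had lower values in aged cells, and the list mean was 1.36 and 1.23 in the young pools and -1.41 and -1.55 in the aged pools. In pooled cells, fewer cells of a type and less RNA per cell cannot be told apart.

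Most genes of the pathway were lower in aged cells, while a few ubiquitous or neuronal isoforms were higher. The muscle forms had the lowest median of the isoform classes, though single genes of other classes lay lower than some of them. Of the 36 genes, 27 were lower and 9 higher, against 46.2% lower and 53.8% higher over all genes, and their median difference was -1.08 against 0.05 over all genes. At an unadjusted p under 0.05, 15 of the 36 were lower, which is 41.7% against 6.19% of all genes, and 3 were higher, which is 8.33% against 2.85%. The 3 became 1 without aged replicate 1. Both aged pools lay below both young pools in 17 genes (47.2%, against 16.9% of all genes) and above them in 3 (8.33%, against 19.9%). None of the 36 passed the adjusted threshold, and the lowest adjusted p was 0.0998, for Ppp1r3c. The 18 genes with an unadjusted p under 0.05 kept their direction under each of the 10 alternatives, except that Aldoa, whose 5 probe sets all end in _x_at, has no value with such probe sets left out. In these 18 genes the ages did not overlap, so leaving out 1 pool could not reverse a direction. A block for the pool number and keeping the control probe sets leave their differences unchanged. Those alternatives therefore say nothing on how firm the directions are.

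**Figure D1:**
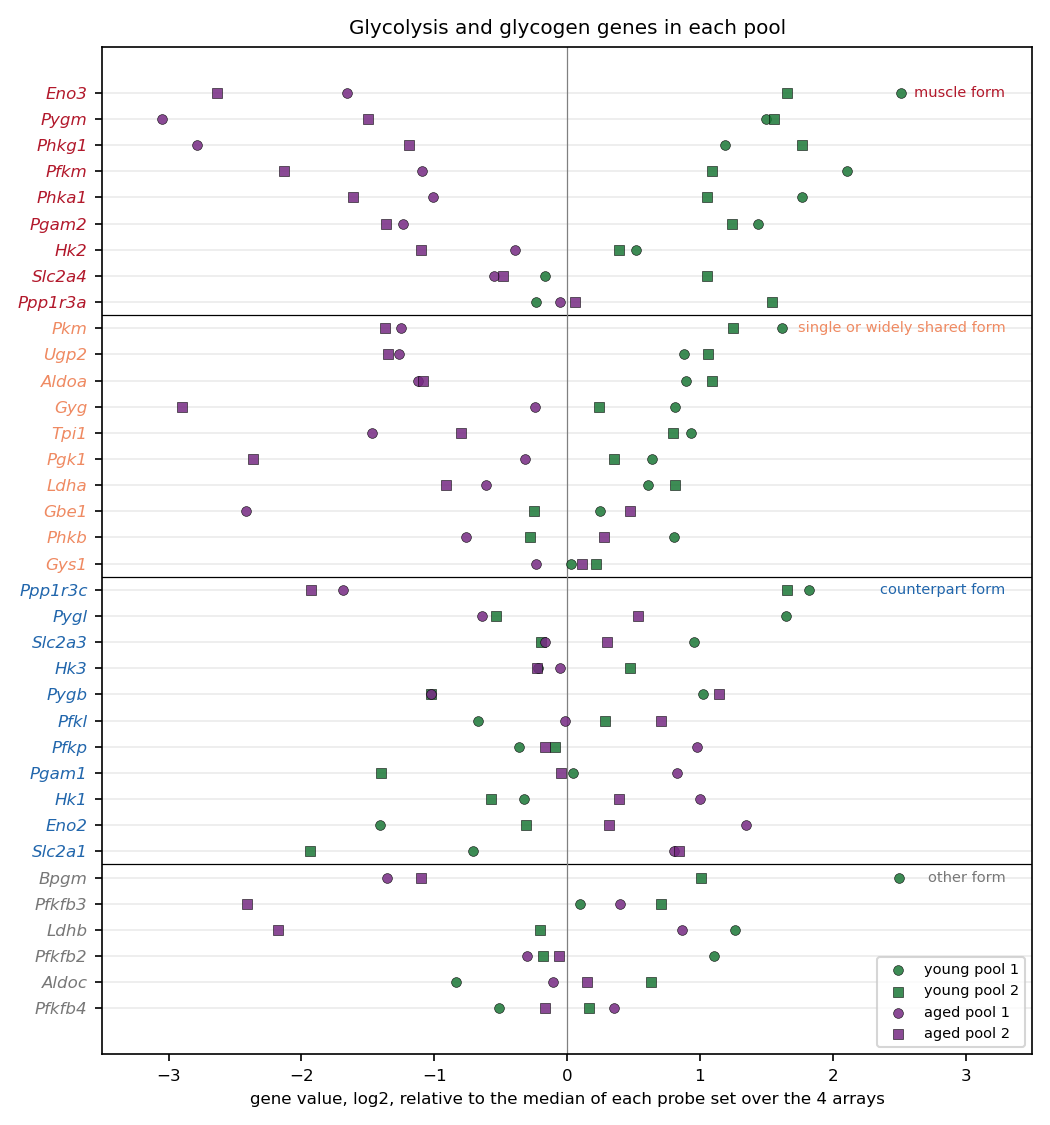
Value of each of the 36 measured genes in each pool (log2, relative to the median of each probe set over the 4 arrays), with circles for pool 1, squares for pool 2, green for young and purple for aged, grouped by isoform class. Of the 9 muscle forms, 8 have both aged pools below both young pools, and 3 of the 11 counterpart forms (Hk1, Eno2 and Slc2a1) have them above. Over all genes, 16.9% have them below and 19.9% above.

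Enolase, which forms phosphoenolpyruvate, showed the widest split among the isoform pairs given below. Its pair of Eno3 and Eno2 was formed after the values were seen, because Eno1 was not analysed here. The muscle enolase Eno3 stood at 2.52 and 1.66 in young pools 1 and 2 and at -1.66 and -2.64 in aged pools 1 and 2. Both aged pools were thus far below both young pools, and the gene was 18.8-fold lower in aged cells (-4.23 ± 0.53, adjusted p = 0.111 with limma). It was number 16 from the lowest of the 18193 genes. Eno2, the enolase of neurons, stood at -1.40 and -0.31 in the young pools and at 1.35 and 0.31 in the aged pools. Its ages did not overlap either, with the aged pools above (1.69 ± 0.57, adjusted p = 0.453), and the difference was 2.75 between the pools numbered 1 and 0.63 between the pools numbered 2.

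Phosphoglycerate mutase, the step before enolase, split the same way. The muscle form Pgam2 stood at 1.44 and 1.24 in the young pools and at -1.24 and -1.36 in the aged pools, so pools of 1 age lay close together and the ages well apart (-2.64 ± 0.36, 6.23-fold lower, adjusted p = 0.120). The form of most other tissues, Pgam1, stood at 0.04 and -1.40 in the young pools and at 0.83 and -0.04 in the aged pools. These overlap, and the difference of 1.07 ± 0.62 was 0.35 without young replicate 2 and 1.79 without young replicate 1. Bpgm, the mutase that makes the regulator of oxygen release in red cells, stood at 2.50 and 1.01 in the young and at -1.36 and -1.10 in the aged pools (-2.98 ± 0.58, 7.91-fold lower, adjusted p = 0.187). Its 3 probe sets ran from -4.28 to -2.03, all lower in aged cells. Of the red cell markers, 5 of 10 were measured, 3 of them lower. Their median was -0.28 and the list means were 0.16 and 0.06 in young and -0.14 and 0.55 in aged pools. They ran from Ank1 (-0.83 ± 0.58) to Alas2 (2.02 ± 0.71), and their part in the Bpgm value was not tested.

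The promoters of these 4 genes are shown because the muscle and counterpart forms of both steps differ in CpG content as well as in direction. Each window runs from 250 bases before to 50 bases after an annotated transcript start, read 5′ to 3′ on the strand of the gene, from RefSeq on GRCm38.p6. For Eno3 that start lies inside the gene, which begins at chr11:70653125. Capitals mark CAGCTG, a form of the E-box bound by myogenic factors, and GGGCGG on either strand, the GC box. The windows are chr11:70656926-70657225 on the plus strand for Eno3, chr6:124769624-124769923 on the minus strand for Eno2, chr11:5803747-5804046 on the minus strand for Pgam2, and chr19:41911621-41911920 on the plus strand for Pgam1.
Eno3: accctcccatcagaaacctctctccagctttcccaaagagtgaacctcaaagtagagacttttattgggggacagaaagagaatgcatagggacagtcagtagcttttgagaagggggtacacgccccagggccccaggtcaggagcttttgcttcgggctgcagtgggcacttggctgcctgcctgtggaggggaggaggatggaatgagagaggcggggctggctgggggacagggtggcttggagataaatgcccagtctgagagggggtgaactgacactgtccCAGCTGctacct
Eno2: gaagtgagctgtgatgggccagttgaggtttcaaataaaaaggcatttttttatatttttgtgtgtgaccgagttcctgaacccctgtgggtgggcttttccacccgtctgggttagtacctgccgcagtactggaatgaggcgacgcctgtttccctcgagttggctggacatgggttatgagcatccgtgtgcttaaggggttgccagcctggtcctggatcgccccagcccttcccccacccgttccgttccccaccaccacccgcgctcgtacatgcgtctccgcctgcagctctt
Pgam2: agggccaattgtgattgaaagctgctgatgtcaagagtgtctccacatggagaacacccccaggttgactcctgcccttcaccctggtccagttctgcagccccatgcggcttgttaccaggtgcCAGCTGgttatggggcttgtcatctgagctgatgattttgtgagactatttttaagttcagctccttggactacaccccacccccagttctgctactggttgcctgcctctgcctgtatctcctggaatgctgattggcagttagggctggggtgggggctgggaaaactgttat
Pgam1: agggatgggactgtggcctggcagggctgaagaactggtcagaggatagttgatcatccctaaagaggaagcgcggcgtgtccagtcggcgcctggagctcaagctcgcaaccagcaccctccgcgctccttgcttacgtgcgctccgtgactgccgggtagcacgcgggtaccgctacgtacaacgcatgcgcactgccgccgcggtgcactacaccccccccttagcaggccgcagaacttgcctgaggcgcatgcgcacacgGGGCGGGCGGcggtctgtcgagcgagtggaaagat
The windows of Eno3 and Pgam2 held 3 and 1 CpG dinucleotides, and those of Eno2 and Pgam1 held 15 and 30, where the median of all 32851 windows was 7. Eno3 and Pgam2 each held 1 CAGCTG, and Pgam1 held 2 overlapping copies of GGGCGG. Pgam2 also held 1 match to the MEF2 motif, which is searched as a degenerate pattern and occurred in 3.7% of the 27025 genes with a window.

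Over the whole set, 38 of the 40 genes had at least 1 window (56 windows), and Slc2a3 and Slc2a4 had none. Letters were searched on both strands, and a gene counted as holding a motif if any of its windows did, so genes with several windows had more chances. CAGCTG was in 5 of 8 muscle forms, 6 of 12 single or widely shared forms and 1 of 11 counterpart forms, against 18.3% of all genes. GGGCGG was in 2 of 8 muscle forms, 11 of 12 shared forms and 6 of 11 counterparts, against 38.2%. ACGTG, the core of the hypoxia response element, was in 3 of 8, 7 of 12 and 7 of 11, against 21.8%. CACCTG (22.6% of all genes) was in 3 of 8, 3 of 12 and 1 of 11, CATTCC (16.6%) in 2, 1 and 2, TATAAA (15.7%) in 1, 0 and 2, and the MEF2 motif in 2, 0 and 0. The muscle forms had a median of 4 CpG per window, from 1 to 25, against 20.5 in the counterparts and 23 in the shared forms. Hk2 and Phka1, with 25 each, were the muscle forms with many CpG, and both were lower in aged cells. Such matches describe letters in these windows only.

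**Figure D2:**
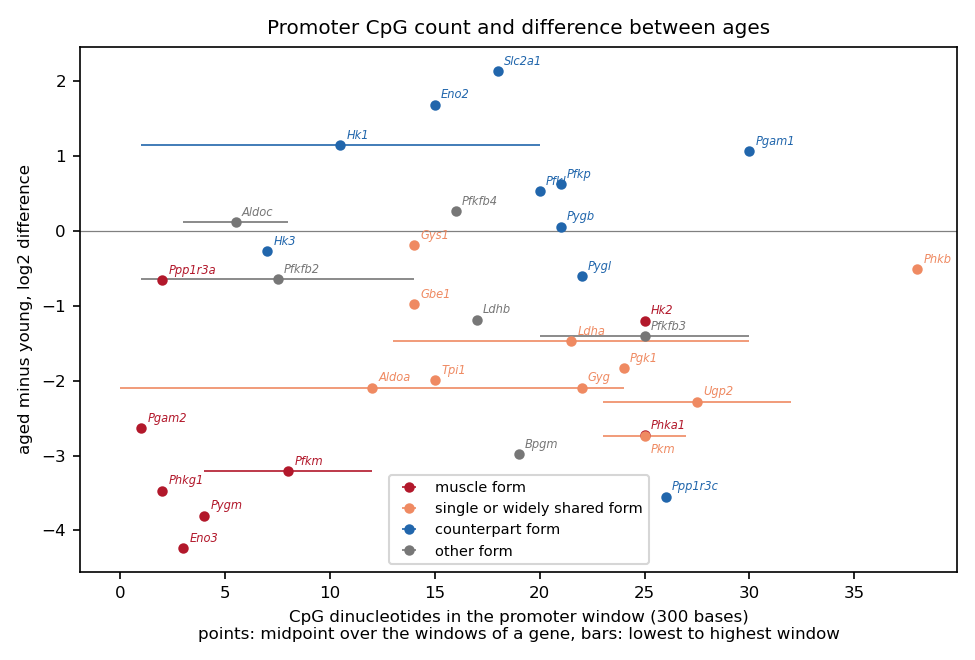
Difference between ages (aged minus young, log2) against the number of CpG dinucleotides in the promoter window of 300 bases, for the measured genes with a window, coloured by isoform class. Points are the midpoint over the windows of a gene and bars run from its lowest to its highest window. Low differences occur with few CpG (Eno3, Pygm and Phkg1) and with many (Ppp1r3c, Phka1 and Pkm), and Ppp1r3a, a muscle form with 2 CpG, differs by -0.65.

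Glucose enters through the Slc2a transporters, and here too the isoforms parted. Slc2a1, the basal transporter GLUT1 of most cells, stood at -0.71 and -1.93 in the young pools and at 0.80 and 0.84 in the aged pools. Both aged pools were higher and close together (2.14 ± 0.51, 4.41-fold, adjusted p = 0.270), and its 3 probe sets ran from 1.90 to 2.46. It was number 110 from the highest of all genes. Slc2a4, the insulin-responsive GLUT4 of muscle and fat, stood at -0.17 and 1.06 in the young and at -0.55 and -0.48 in the aged pools. The ages did not overlap, but young pool 1 lay near the aged pools. The difference of -0.96 ± 0.51 was -0.35 without young replicate 2 and -1.57 without young replicate 1. With all pools, the 2 probe sets of Slc2a4 differed by -1.57 and -0.35, and the ages overlapped in the second of them. Of the fat cell markers, 7 of 9 were measured, with 3 of them lower, a median of 0.32, list means of -0.0016 and 0.06 in young and 0.12 and 0.13 in aged pools, and extremes in Lipe (-0.54 ± 0.55) and Cidec (0.68 ± 0.53). Slc2a3, the transporter GLUT3 of neurons and white blood cells, overlapped between ages (-0.31 ± 0.51), with 4 probe sets from -1.34 to 0.50.

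Hexokinase traps glucose in the cell as glucose 6-phosphate. Hk2, the insulin-regulated form of muscle, stood at 0.52 and 0.39 in the young and at -0.39 and -1.10 in the aged pools (-1.20 ± 0.42, 2.29-fold lower, adjusted p = 0.462). Hk1, the form of most tissues, stood at -0.32 and -0.58 in the young and at 1.00 and 0.39 in the aged pools (1.14 ± 0.41, 2.21-fold higher, adjusted p = 0.470). The aged pools thus lay below the young ones for Hk2 and above them for Hk1. The 2 probe sets of Hk1 differed by 0.24 and 2.05, so the size of the difference depends on the probe set. Hk3, the form of white blood cells, differed by -0.27 ± 0.41 with overlapping ages.

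Phosphofructokinase commits glucose to glycolysis, and its muscle subunit was the low 1 of the 3. Pfkm stood at 2.10 and 1.09 in the young and at -1.09 and -2.13 in the aged pools (-3.21 ± 0.56, 9.24-fold lower, adjusted p = 0.164). The difference was -3.19 between the pools numbered 1 and -3.22 between those numbered 2. The liver subunit Pfkl (0.54 ± 0.50) and the platelet subunit Pfkp (0.63 ± 0.50) overlapped between ages. With 1 pool left out, Pfkl ran from 0.059 (young pool 1 removed) to 1.01 (young pool 2 removed), and Pfkp from 0.057 (aged pool 1 removed) to 1.20 (aged pool 2 removed). The 3 probe sets of Pfkp ran from -0.37 to 2.28.

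The bifunctional PFKFB enzymes set the level of fructose 2,6-bisphosphate, an activator of phosphofructokinase, and none had ages that stood apart. Pfkfb3, the inducible form, stood at 0.10 and 0.71 in the young and at 0.40 and -2.41 in the aged pools, so that 1 aged pool alone was low (-1.41 ± 0.93, and -0.0050 without aged replicate 2). Pfkfb2, the heart form, was high in young pool 1 alone, at 1.11 against -0.30 to -0.06 in the other 3 pools (-0.65 ± 0.53, and -0.0012 without young replicate 1). Its 4 probe sets ran from -1.65 to 0.15. Pfkfb4, the testis form, differed by 0.27 ± 0.44, and by -0.07 without young replicate 1.

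The middle of the pathway, where 1 gene serves most tissues, was lower as well. Aldoa, the aldolase of muscle and most other tissues, stood at 0.89 and 1.09 in the young and at -1.12 and -1.08 in the aged pools. Its 5 probe sets ran from -2.25 to -1.78, and the gene differed by -2.09 ± 0.36 (4.27-fold lower, adjusted p = 0.162). Aldoc, the aldolase of brain, had young pools at -0.84 and 0.63 that enclosed both aged pools (0.12 ± 0.57).

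Tpi1, which interconverts the triose phosphates, stood at 0.93 and 0.80 in the young and at -1.47 and -0.80 in the aged pools (-1.99 ± 0.41, adjusted p = 0.206), and its 3 probe sets ran from -2.08 to -1.88. Pgk1, the first ATP-forming enzyme, stood at 0.64 and 0.35 in the young and at -0.32 and -2.36 in the aged pools. Aged pool 2 carried most of its difference, which was -1.83 ± 0.71 (adjusted p = 0.532) and -0.81 without aged replicate 2, with an unadjusted p of 0.148. Pgk1 and the kinase subunit Phka1 lie on the X chromosome. Xist, which acts in X inactivation in females, had higher values in the aged pools, with the highest difference of all 18193 genes (6.16 ± 0.44). A difference in sex between the young and the aged pools could not be told apart from age in any gene given here, on the X chromosome or not. Its part was not tested.

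Gapdh, the oxidizing step that is often used as a reference gene, was read by 3 control probe sets, at 5′, middle and 3′ parts of the transcript. Their mean stood at 0.96 and 0.86 in the young and at -0.83 and -1.59 in the aged pools. In a fit that kept control probe sets, Gapdh was 4.35-fold lower in aged cells (-2.12 ± 0.42, adjusted p = 0.196). The 5′ probe set stood at -0.36 in aged pool 1 and at -2.52 in aged pool 2, while the 3′ probe set stood at -0.89 and -1.02. The 5′ minus 3′ value of Gapdh was thus 0.52 in aged pool 1 and -1.50 in aged pool 2, against -0.61 and -0.52 in the young pools. For Actb, Pcx and Tfrc, the other transcripts with such probe sets, aged pool 2 had 0.02, 0.95 and -0.35. Among the genes above, Pgk1 and Pfkfb3 were low in aged pool 2, and the part of RNA length in this was not tested. A further 3 probe sets map to Gapdh together with related sequences, and they differed by -1.80, -1.14 and 0.40.

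Pyruvate kinase, the last step, was among the lower genes, and lactate dehydrogenase was less even. Pkm, which encodes the muscle and the proliferation-linked isoforms by alternative splicing, was read by 1 probe set, and that probe set was not assigned to either. It stood at 1.62 and 1.25 in the young and at -1.25 and -1.37 in the aged pools (-2.74 ± 0.37, 6.70-fold lower, adjusted p = 0.120). Ldha, the muscle-type lactate dehydrogenase, stood at 0.61 and 0.81 in the young and at -0.61 and -0.91 in the aged pools (-1.47 ± 0.37, 2.77-fold lower, adjusted p = 0.296). Ldhb, the heart-type subunit, stood at 1.26 and -0.20 in the young and at 0.86 and -2.17 in the aged pools. Pool 2 was below pool 1 at each age, and the difference of -1.18 ± 1.07 was 0.34 without aged replicate 2.

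**Figure D3:**
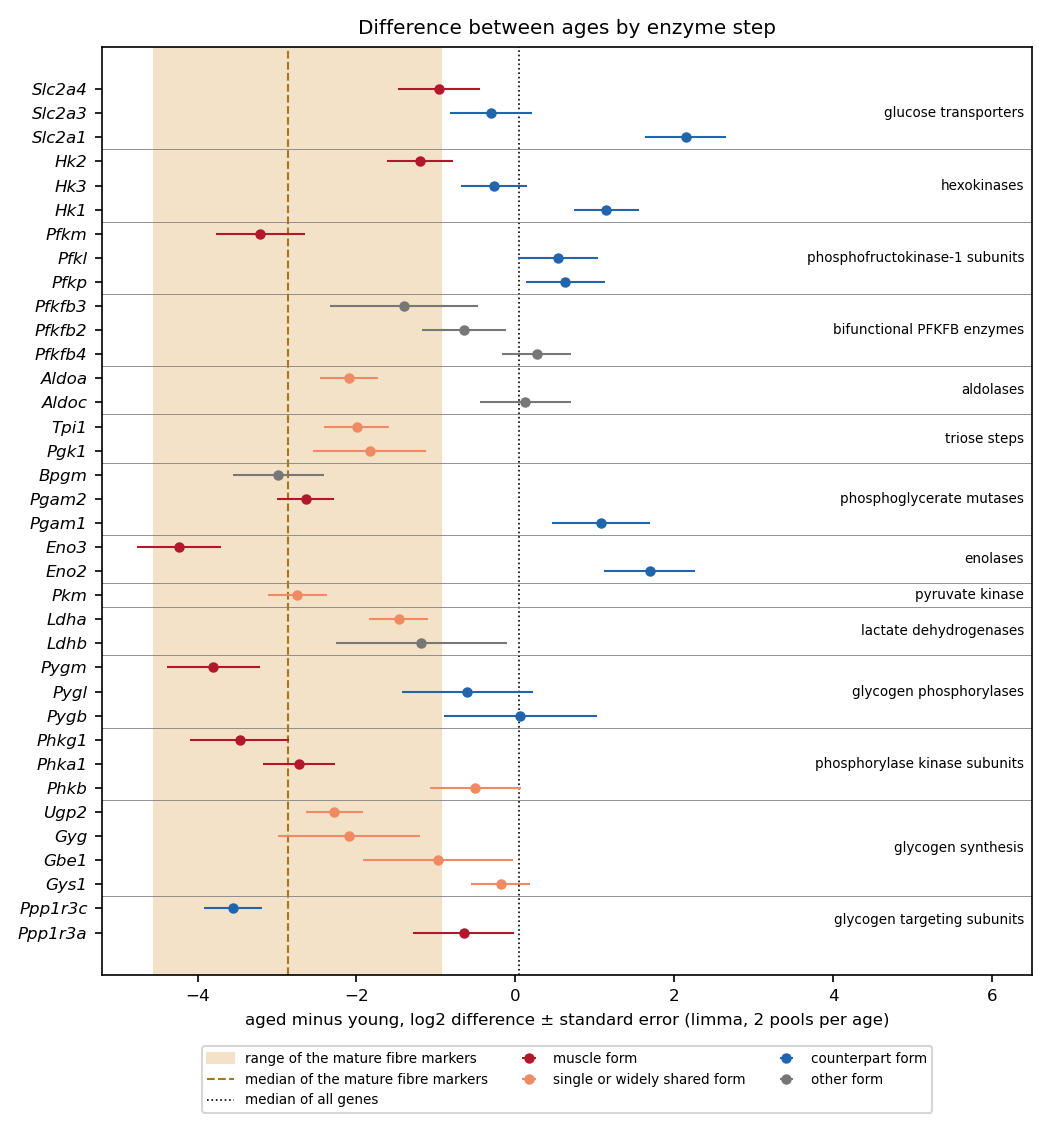
Difference between ages (aged minus young, log2) of each measured gene with the standard error of the limma fit over 2 pools per age, ordered by step and coloured by isoform class. The band is the range of the mature fibre markers (-4.55 to -0.93), its dashed line their median of -2.86, and the dotted line the median of all genes. At the transporter, hexokinase, phosphofructokinase-1, mutase and enolase steps the muscle form lies left of its counterparts, while for the glycogen targeting subunits the order is turned.

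The genes of glycogen breakdown held several of the lowest values. Pygm, the muscle phosphorylase that releases glucose from glycogen, stood at 1.50 and 1.56 in the young and at -3.05 and -1.50 in the aged pools. All 4 pools followed age, and the gene was 14.0-fold lower (-3.80 ± 0.58, adjusted p = 0.150), number 34 from the lowest of all genes. The liver form Pygl (-0.61 ± 0.82) and the brain form Pygb (0.06 ± 0.96) overlapped between ages. Pygb stood at 1.03 and -1.03 in the young and at -1.03 and 1.15 in the aged pools, so neither age was uniform.

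Phosphorylase kinase switches phosphorylase on in response to calcium and hormones, and its muscle subunits were lower. The catalytic subunit of muscle, Phkg1, stood at 1.19 and 1.77 in the young and at -2.79 and -1.19 in the aged pools (-3.47 ± 0.62, 11.1-fold lower, adjusted p = 0.165). The regulatory subunit of muscle, Phka1, stood at 1.77 and 1.06 in the young and at -1.01 and -1.62 in the aged pools (-2.72 ± 0.45, 6.60-fold lower, adjusted p = 0.152). Its 3 probe sets ran from -3.00 to -2.34. Phkb, the subunit shared between tissues, overlapped between ages (-0.51 ± 0.57, and 0.04 without young replicate 1).

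Glycogen synthesis was uneven, with UDP-glucose formation lower and the synthase near 0. Ugp2, which makes the UDP-glucose that synthase uses, stood at 0.88 and 1.06 in the young and at -1.27 and -1.34 in the aged pools. Its 5 probe sets ran from -3.18 to -1.46, and the gene was 4.86-fold lower (-2.28 ± 0.36, adjusted p = 0.150). Gys1, the glycogen synthase of muscle and most tissues, had all 4 pools between -0.23 and 0.22 and a difference of -0.19 ± 0.37, or -0.36 to -0.014 with 1 pool left out. Its 2 probe sets differed by -0.66 and 0.29. Gyg, the glycogenin that primes new particles, stood at 0.81 and 0.24 in the young and at -0.24 and -2.90 in the aged pools (-2.09 ± 0.89, and -0.77 without aged replicate 2). Gbe1, the branching enzyme, was low in aged pool 1 alone, at -2.42 against -0.25 to 0.47 in the other pools (-0.97 ± 0.95, and 0.47 without aged replicate 1).

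The subunits that bring protein phosphatase 1 to glycogen went against the pattern of muscle and counterpart forms. Ppp1r3c, which is expressed in several tissues including muscle and was classed as a counterpart, stood at 1.83 and 1.66 in the young and at -1.68 and -1.93 in the aged pools. This was the gene with the lowest adjusted p of the set (-3.55 ± 0.37, 11.7-fold lower, adjusted p = 0.0998), and its 2 probe sets differed by -4.20 and -2.90. Ppp1r3a, the striated muscle form, stood at -0.24 and 1.54 in the young and at -0.06 and 0.06 in the aged pools, so young pool 2 alone stood out (-0.65 ± 0.64, and 0.24 without young replicate 2).

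By class, the 9 muscle forms were all lower, 7 of them at an unadjusted p under 0.05, with a median difference of -2.72. The 10 single or widely shared forms were also all lower, 6 at that p, with a median of -1.91. Of the 11 counterpart forms, 4 were lower and 7 higher, 1 and 3 at that p, with a median of 0.54. That median was 0.35 without young replicate 2, 0.18 without aged replicate 2, 0.87 using the most variable probe set and 0.12 with Aldoc and Ldhb added to the class. The 6 other forms had 4 lower and 2 higher and a median of -0.92, and Bpgm alone was past that p. Over all genes, 46.2% were lower and 53.8% higher, and 6.19% were lower and 2.85% higher at that p. The classes were set from known tissue ranges with earlier results of these data known, so these medians are a description.

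Subtracting 1 isoform from another within each array removes whatever shifts an array as a whole. Of the 9 pairs formed, 7 set a muscle form against counterparts, while Aldoa minus Aldoc and Ldha minus Ldhb set a widely shared form against an other form. Of the 9, 7 had both aged pools below both young pools. In each of these 7 the first gene by itself already had both aged pools below both young pools, as had 16.9% of all genes. The count of pairs therefore largely repeats those genes, and the share over other pairs of genes was not computed. Hk2 minus Hk1 was 0.84 and 0.96 in the young and -1.39 and -1.49 in the aged pools, a difference of -2.34. Pygm minus the mean of Pygb and Pygl was 0.16 and 2.34 in the young and -2.21 and -2.34 in the aged pools, a difference of -3.53. In both pairs the aged pools lay within 0.2 of each other, while the young pools of the second pair were far apart.

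The other pairs with lower values in aged cells were Slc2a4 minus Slc2a1 (-3.10, and -1.88 without young replicate 2), Pfkm minus the mean of Pfkl and Pfkp (-3.79), Pgam2 minus Pgam1 (-3.71), Aldoa minus Aldoc (-2.22) and Eno3 minus Eno2 (-5.92). The last pair was formed after the values were seen, because Eno1 was not analysed here. Ppp1r3a minus Ppp1r3c ran the other way (2.90, and 1.92 without young replicate 1), and Ldha minus Ldhb overlapped between ages (-0.29, from -1.65 to 1.08 when 1 pool is left out). A two-sided exact permutation test gave p = 0.333 for each of the 8 pairs with separated ages (0.375 adjusted over the 9 pairs), which is the smallest p that 2 against 2 pools allow, and p = 1 for Ldha minus Ldhb.

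**Figure D4:**
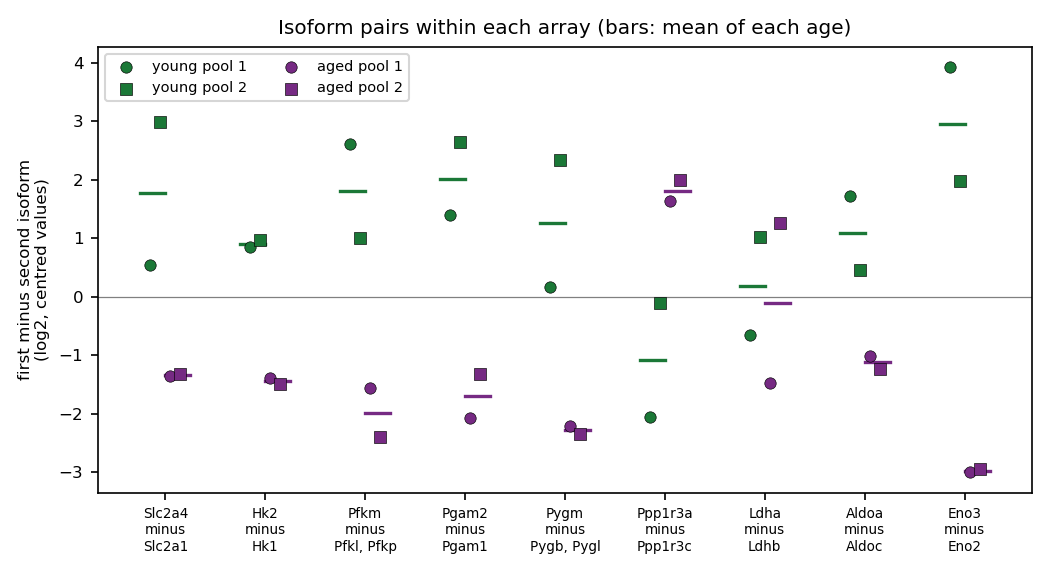
First minus second isoform within each array (log2, centred values) for the 9 pairs, of which 7 set a muscle form against counterparts and the Aldoa and Ldha pairs a widely shared form against an other form, with circles for pool 1, squares for pool 2 and bars for the mean of each age (green young, purple aged). In 7 pairs both aged pools lie below both young pools, Ppp1r3a minus Ppp1r3c is turned, and Ldha minus Ldhb overlaps. The first genes of those 7 pairs have both aged pools below both young pools by themselves.

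The muscle forms and the fibre markers took similar values in every pool. The mean of the muscle forms was 1.18 and 1.26 in the young and -1.31 and -1.33 in the aged pools, beside 1.36, 1.23, -1.41 and -1.55 for the 26 fibre markers. These markers ran from Myoz1 (-4.55 ± 0.49) to Actn2 (-0.93 ± 0.74) with a median of -2.86. At an unadjusted p under 0.05, 24 of 26 were lower, against 6.19% of all genes. Of the 36 genes of the pathway, 20 had differences within that range, namely 8 of 9 muscle forms, 8 of 10 single or widely shared forms, 1 of 11 counterparts (Ppp1r3c) and 3 of 6 other forms. The range is wide, because its upper edge is Actn2 alone, whose ages overlap, and the share of all genes within it was not computed. Gbe1, Ldhb and Pfkfb3 are among the 20 although their ages overlap. The count is therefore no measure of likeness to the fibre markers. The part of fibre RNA in these differences was not tested.

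Markers of the satellite cell itself did not follow the muscle forms. Of 14, 8 were higher. Their median was 0.05, and the list means were -0.11 and -0.27 in the young and 0.15 and 0.34 in the aged pools. Cd34 was lowest (-0.29 ± 0.43), and Pax7 (2.31 ± 0.36), Myf5 (2.56 ± 0.63) and Sdc4 (1.22 ± 0.53) were higher in aged cells. Beside the higher Eno2 and Slc2a1, markers of Schwann cells and neurons had 7 of 8 measured genes higher, against 53.8% of all genes. Their median was 0.20, with list means of -0.19 and -0.13 in the young and 0.48 and 0.01 in the aged pools. The neuronal markers were lower or near 0, namely Tubb3 (-0.54 ± 0.39), Nefl (0.03 ± 0.42), Nefm (0.06 ± 0.37) and Uchl1 (0.07 ± 0.47). Those of Schwann cells were S100b (0.33 ± 0.35), Sox10 (1.04 ± 0.42), Mbp (0.98 ± 0.42) and Pmp22 (1.29 ± 0.71). Leukocyte markers, beside Hk3 and Slc2a3, had 8 of 15 lower, a median of -0.13, list means of -0.11 and -0.16 in the young and 0.11 and 0.03 in the aged pools, and extremes in S100a8 (-2.77 ± 0.50) and Cd3g (4.15 ± 0.47). At an unadjusted p under 0.05, 3 of the 15 leukocyte markers were lower and 3 higher, against 6.19% and 2.85% of all genes. Their median near 0 thus joins genes that differed in opposite directions. The part of these cell types in the results was not tested.

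**Figure D5:**
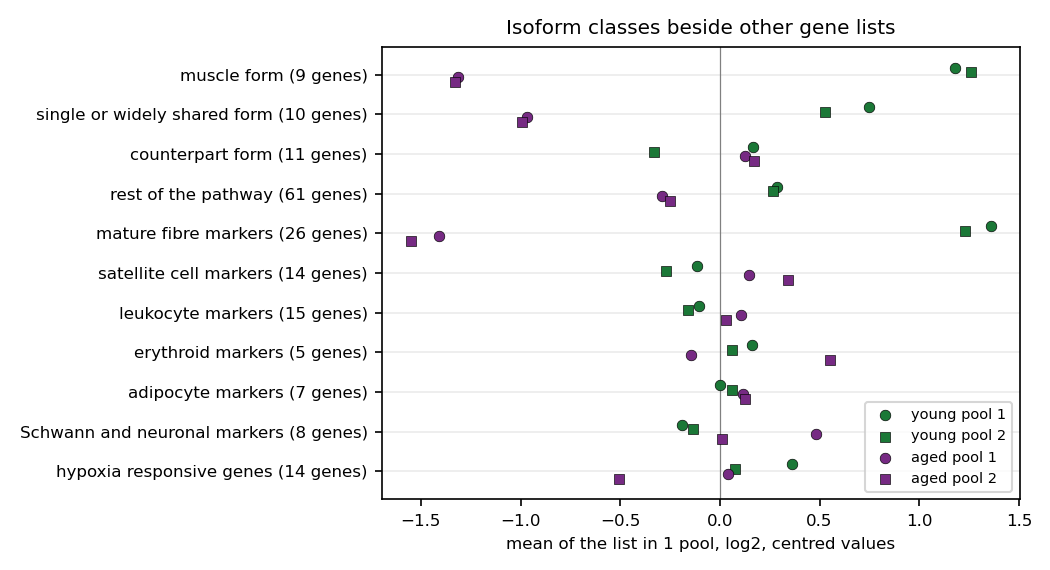
Mean of each isoform class and of each other gene list in 1 pool (log2, centred values), with circles for pool 1, squares for pool 2, green for young and purple for aged. The muscle forms (1.18, 1.26, -1.31 and -1.33) and the mature fibre markers lie together, while the counterpart forms and the satellite cell markers stay within 0.4 of 0 in each pool.

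Other enzymes and regulators of the pathway were less shifted than its core steps. Of 66 listed genes, 61 were measured. Their median was -0.19, 38 being lower and 23 higher, against 46.2% lower and 53.8% higher over all genes. At an unadjusted p under 0.05, 13 of the 61 were lower and 1 higher, where 6.19% of all genes were lower and 2.85% higher. The 1 higher gene is thus not above the share over all genes. These include the pyruvate dehydrogenase complex subunits Dlat (-3.34 ± 0.36), Pdhx (-2.49 ± 0.71) and Pdha1 (-1.99 ± 0.51), the inhibitory kinases Pdk2 (-3.40 ± 0.37) and Pdk4 (-1.50 ± 0.42), the mitochondrial pyruvate carrier Mpc1 (-1.90 ± 0.70) and the monocarboxylate transporter Slc16a7 (-2.09 ± 0.79). Genes of the same steps that did not pass, named after their values were seen, include Pdhb (-0.10 ± 0.48), Dld (-0.54 ± 0.45), Pdk1 (-0.63 ± 0.40), Pdk3 (-0.50 ± 0.61), Slc16a1 (0.24 ± 0.53) and Slc16a3 (0.21 ± 0.80).

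The AMP-activated kinase, a sensor of low energy, had its muscle subunits Prkag3 (-4.13 ± 0.85) and Prkaa2 (-2.96 ± 0.48) among the 13, and Prkag3 was the lowest of the list. The muscle fructose bisphosphatase Fbp2 (-2.61 ± 0.37), the fructose 2,6-bisphosphatase Tigar (-2.47 ± 0.40) and the glycerol 3-phosphate dehydrogenase Gpd1 (-1.92 ± 0.40) completed the lower genes with Pgm1 (-1.11 ± 0.40). Pgm2, listed with Pgm1 among the phosphoglucomutases, was the 1 higher gene (1.71 ± 0.36) and stood at -0.76 and -0.96 in the young and at 0.76 and 0.93 in the aged pools. The adjusted p-values of these 14 genes ran from 0.0998 to 0.511 with limma.

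Genes that respond to low oxygen, many of which share regulators with glycolysis, lay on both sides of 0. Of 15 listed, 14 were measured, and 7 of these were lower. At an unadjusted p under 0.05, 3 of the 14 were lower and 0 higher, where 6.19% of all genes were lower and 2.85% higher. The median of the 14 was 0.06, or -0.46 without aged replicate 1. The extremes were Higd1a (-3.08 ± 0.38) and Adm (0.81 ± 0.36). The list means were 0.36 and 0.08 in the young and 0.04 and -0.51 in the aged pools, so aged pool 2 was the lowest.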

How the data were processed

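Biotin-labelled RNA of 4 pools (2 young, 2 aged) was measured on Affymetrix arrays after 2 rounds of T7 amplification, per the labels' protocols. Before the authors deposited the log2 values of 45101 probe sets, these had been centred on the median of each probe set (0 within 5.0e-07, from the values). The log base is assumed. For the background correction, probe summary and normalization, the entry is "not given in the sources used here", and higher is assumed to mean more RNA.

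Probe sets with 1 symbol in the platform annotation (34945, of which 34741 matched GRCm38.p6 by Entrez ID) were averaged to 18193 genes. Probe sets with several symbols (932) or none (9160) and 64 controls were left out. The age contrast was fitted in R 4.3.3 by limma 3.58.1 (lmFit, then eBayes with no variance trend, 3.556 prior and 2 residual degrees of freedom), with Benjamini-Hochberg adjustment over all genes. The pipeline was tested on simulated data. Isoform pairs had an exact permutation test (Python 3.11.15). The number of arrays limits the precision. The limma p-values set a difference against the spread between pools, moderated by a prior drawn from all genes, and not against the spread between mice.

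All 40 genes are named. Of the remaining pathway genes, those with an unadjusted p under 0.05 and the extremes are named, and of other lists the extremes with Pax7, Myf5 and Sdc4. The other Schwann and neuronal markers were named after their values were seen. The members, classes and lists were chosen with earlier results of these data known. Figures were drawn with matplotlib 3.10.9.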

Additional observations from a re-analysis of the deposited data

How the results depend on the processing

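With all 4 pools kept, the count of genes past the adjusted threshold was 0 under each alternative. The number of lower genes of the pathway, 15 in the main fit, ran from 13 to 16, and that of higher ones stayed at 3. Equal counts did not always hold the same genes. Among the 3 higher, Pgam1 took the place of Eno2 with the replicate block, and Pfkp did so using the most variable probe set. The pool numbers do not show pairing of pools by design. With the replicate number as a block, 16 genes of the pathway were lower at an unadjusted p under 0.05 and 3 higher, 0 genes passed the adjusted threshold, and deviations of same-numbered pools correlated at 0.138 over genes. With Gapdh through its control probe sets, an alternative added after seeing the data, the 15 became 16.

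The muscle median was -2.53 with quantile normalization, -3.00 using the most variable probe set and -2.64 with Aldoa, Ldha, Pkm and Gys1 counted as muscle forms, and -3.08 to -2.54 without 1 pool. The counterpart median was 0.87 using the most variable probe set, 0.12 with Aldoc and Ldhb added, and 0.18 to 0.64 without 1 pool. The remaining pathway median was -0.17 with quantile normalization, -0.23 with arrays centred on their median, -0.43 using the most variable probe set, -0.22 with _x_at and _s_at probe sets left out, and -0.28 to -0.11 without 1 pool. The fibre marker median was -2.75 with quantile normalization, -3.02 using the most variable probe set and -2.95 to -2.67 without 1 pool. The leukocyte median was -0.0082 with quantile normalization, -0.0059 with _x_at and _s_at probe sets left out, and -0.038 to 0.30 without 1 pool. The adipocyte median was 0.28 with centred arrays and -0.0093 to 0.15 without 1 pool. The erythroid median was 0.12 with _x_at and _s_at probe sets left out. The Schwann and neuronal median was 0.45 using the most variable probe set and 0.23 to 0.44 without 1 pool. Without 1 pool the satellite cell median was 0.078 to 0.22 and the hypoxia median -0.46 to -0.0019.

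Of the 36 genes, 26 kept their direction under each alternative that gave them a value, which was all 10 except for Aldoa, measured by _x_at probe sets alone. Where the ages of a gene did not overlap, leaving out 1 pool could not reverse its direction. Aldoa and Aldoa minus Aldoc were not run with _x_at and _s_at probe sets left out. Ldha minus Ldhb was 0.27 using the most variable probe set, 0.0030 with _x_at and _s_at probe sets left out and -1.65 to 1.08 without 1 pool. Slc2a3 was 0.30 with _x_at and _s_at probe sets left out. Without 1 pool the ranges of the genes that reversed were -0.89 to 0.26 for Slc2a3, -0.074 to 0.61 for Pfkfb4, -0.61 to 0.86 for Aldoc, -1.70 to 0.48 for Pygl, -1.05 to 0.037 for Phkb, -0.62 to 0.077 for Hk3, -1.03 to 1.15 for Pygb, -1.54 to 0.24 for Ppp1r3a, -2.42 to 0.47 for Gbe1 and -2.70 to 0.34 for Ldhb. The causes were not tested, and values without levels do not allow a filter on dim probe sets.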
